A study of Mus musculus with 6 samples.

Results

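The chemokines of the cystic kidney described here are 10 genes, chosen by name: *Ccl2*, *Ccl5*, *Ccl7*, *Ccl9*, *Cxcl1*, *Cxcl10*, *Cxcl12*, *Cxcl14*, *Cxcl16* and *Cx3cl1*. The deposited table listed them in 15 transcript entries, out of 54721 entries and 23276 gene symbols in all. Among these, 12 entries carry a RefSeq mRNA identifier and 3 were assembled from the reads. RNA came from whole kidneys of 6 mice at post-natal day 22. The 3 SKO (single knockout) kidneys had the genotype KspCre; Pkd1 F/RC, in which Cre driven by the promoter of Ksp-cadherin (*Cdh16*) removes the floxed *Pkd1* allele in renal tubules, while the other allele carries the hypomorphic RC mutation in every cell. The 3 DKO (double knockout) kidneys carried in addition the floxed miR-17∼92 cluster on both alleles. Both groups thus share the *Pkd1* lesion and the Cre, no kidney with intact *Pkd1* was analysed here, and endothelial, stromal and blood-derived cells lie outside the tissue in which the Cre is expressed.

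Chemokines are small secreted proteins that draw cells bearing the matching G-protein-coupled receptor along a gradient. The family is named after the spacing of the first cysteines, as in CC (Ccl), CXC (Cxcl) and CX3C (Cx3cl1). Inducible members such as *Ccl2*, *Cxcl1* and *Cxcl10* are switched on in injured or infected tissue and recruit monocytes, neutrophils and T cells, whereas homeostatic members such as *Cxcl12* and *Cxcl14* are made by resting tissue. In polycystic kidneys, monocyte chemoattractants and the macrophages that follow them are known for their link with cyst growth.

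Each level below is the authors' mean over all 6 kidneys in CPM (counts scaled to the total count of each library), 1 value for SKO and DKO kidneys together. Over all 54721 entries the levels sum to 1.007e+06 CPM, so the total is that of counts over entries. If entries share reads, it is not the number of reads. The table holds no level of a single kidney or of a group. A difference between SKO and DKO kidneys was therefore not tested, the loss of miR-17∼92 was not checked, and no SD, interval or n stands beside a level. How deeply each library was sequenced is unknown here. The lowest value of the table, 0.0263 CPM, is shared by 4617 entries. Since the kidneys were sequenced whole, fewer cells of a type and less RNA per cell cannot be told apart. The defining genes of the labelled tissue were present. All 8 tubule markers lay between 34.6 and 423 CPM per kb of transcript, led by *Slc34a1*, the phosphate transporter of the proximal tubule. *Cdh16*, whose promoter drives the Cre, had a level of 480 CPM.

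Because the DKO kidneys were bred to lose miR-17∼92, its 6 guide strands are shown first, as given by RefSeq for GRCm38 on the forward strand of chromosome 14. The cluster's mature miRNAs run from position 115043684 (start of miR-17-5p) to 115044496 (end of miR-92a-3p). Capitals mark the seed, bases 2 to 8, which pairs with messenger RNAs.
miR-17-5p: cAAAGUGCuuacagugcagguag
miR-20a-5p: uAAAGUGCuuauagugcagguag
miR-18a-5p: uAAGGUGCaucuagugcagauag
miR-19a-3p: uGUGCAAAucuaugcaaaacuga
miR-19b-3p: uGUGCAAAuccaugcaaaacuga
miR-92a-3p: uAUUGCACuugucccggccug
miR-17-5p and miR-20a-5p share 1 seed and miR-19a-3p and miR-19b-3p share another, so the 6 strands hold 4 seeds.

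Matches to these seeds were sought in the 3′-UTRs of the 12 RefSeq entries, on the transcribed strand, as GCACTTT (miR-17 and miR-20a), GCACCTT (miR-18a), TTTGCAC (miR-19) and GTGCAAT (miR-92a). Of the 10 chemokines, 2 held a match, *Cxcl12* and *Ccl7*. Over 18935 genes with 1 RefSeq 3′-UTR each, 2086 held GCACTTT, 1366 held GCACCTT, 1901 held TTTGCAC and 1132 held GTGCAAT, and 26.4% held at least 1 of the 4 matches. The miR-19 match ends in the letters with which the miR-17 and miR-18a matches begin and can overlap them, but no sites in these chemokines overlapped. The share rises with length, so the share is also given for 3′-UTRs of 0.8 to 1.25 times each chemokine's own length. For the chemokines with no match that share ran from 4.57% (*Ccl5*, 199 bases) to 51.5% (*Ccl9*, 2465 bases).

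*Cxcl12*, also known as SDF-1, has RefSeq entries for 3 splice forms whose coding regions end differently. The windows below show its 3 distinct matches and that of *Ccl7* in 29 bases of GRCm38 sequence on the forward strand, with the match in capitals.
Cxcl12 alpha entry, miR-17 and miR-20a, chr6:117174738-117174766: tatatttttgtGCACTTTttatgtttctt
Cxcl12 gamma entry, miR-18a, chr6:117177533-117177561: actattggtggGCACCTTtcaagcccagg
Cxcl12 beta and gamma entries, miR-19, chr6:117178714-117178742: aagggacttgcTTTGCACagttttgctgt
Ccl7, miR-19, chr11:82047497-82047525: tttcatataaaatgtattTTTGCACaaaa
The match for miR-17 and miR-20a lay only in the alpha entry (NM_021704), at bases 1167 to 1173 of a 3′-UTR of 1487 bases, where 36.0% of 3′-UTRs of like length held a match to at least 1 of the 4 seeds. The miR-19 match lay in both the beta entry (NM_013655) and the gamma entry (NM_001012477) and was followed by an A, as was that of *Ccl7*. For 3′-UTRs as long as that of the beta entry (2768 bases), 56.6% held a match, and for the gamma entry (5188 bases) 75.7% did, so a match is common at these lengths. The *Ccl7* match began at base 425 of a 3′-UTR of 435 bases, and 10.5% of 3′-UTRs of that size held a match. No entry of the 10 chemokines held the miR-92a match. Of the 8 chemokines with no match, *Ccl9*, *Cx3cl1* and *Cxcl16* had the longest 3′-UTRs, with 2465, 1871 and 1421 bases. A match is a stretch of letters, and no pairing or repression was measured.

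*Cxcl12*, *Cxcl14* and the membrane-anchored *Cx3cl1* and *Cxcl16* made up most of the chemokine signal. *Cxcl12*, which holds cells that bear its receptor Cxcr4 in place and guides vessel growth, was listed at 100.2 CPM (6.65 on the log2 scale), the highest of the 10 also per kilobase. *Cx3cl1* (fractalkine), a chemokine on a membrane stalk that tethers monocytes and macrophages, followed on both scales, with 48.9 CPM (5.61 on the log2 scale). *Cxcl16*, the other chemokine made as a membrane protein, was listed at 24.1 CPM (4.59 on the log2 scale), and *Cxcl14*, a chemokine of resting epithelia, at 18.0 CPM (4.17 on the log2 scale). Together these 4 genes took 96.3% of the summed CPM of the 10 and 89.1% of the sum per kilobase of transcript. With the other measured chemokines included, their share was 88.7% of the CPM of 36 genes and 71.0% per kilobase over the 35 with a length. Per kilobase, 92.3% of the 20180 genes with a length were lower than *Cxcl12* (gamma entry) and 90.5% were lower than *Cx3cl1*. For *Cxcl14* and *Cxcl16* these shares were 85.9% and 84.4%.

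**Figure D1:**
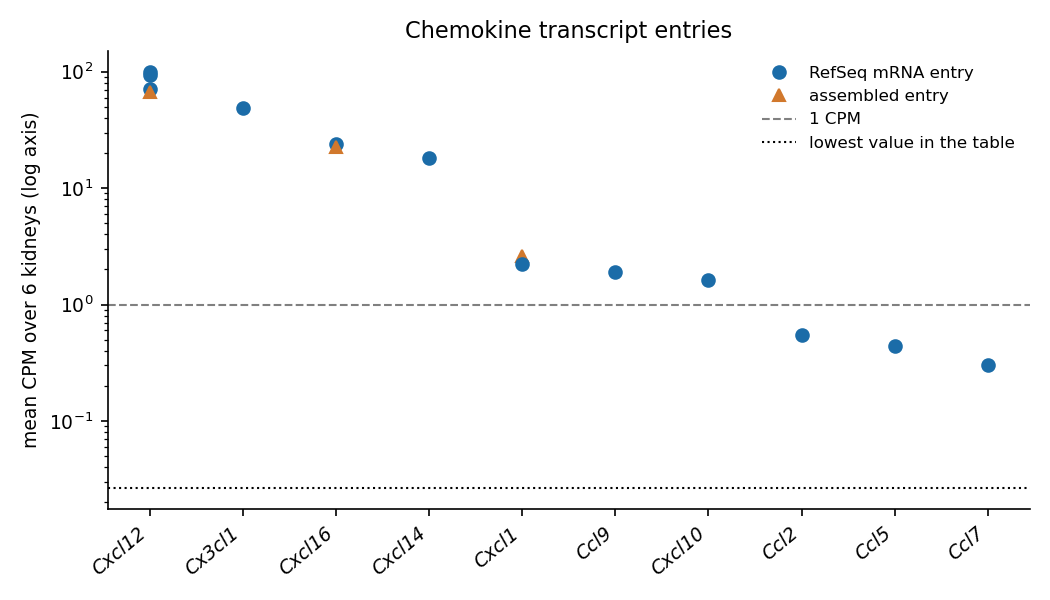
Mean CPM over 6 kidneys (log axis) of the 15 transcript entries of the 10 chemokines, circles for RefSeq mRNA entries and triangles for entries assembled from the reads. *Cxcl12*, *Cx3cl1*, *Cxcl16* and *Cxcl14* lie between 18.0 and 100.2 CPM, and *Ccl2*, *Ccl5* and *Ccl7* lie under the dashed line at 1 CPM but above the lowest value of the table, 0.0263 CPM (dotted).

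*Cxcl1*, *Ccl9* and *Cxcl10* were scarcer. *Cxcl1*, the mouse neutrophil attractant also known as KC, reached 2.62 CPM (1.39 on the log2 scale) in an assembled entry and 2.21 CPM in its RefSeq entry. *Ccl9*, a macrophage product that acts on Ccr1, was listed at 1.91 CPM (0.93 on the log2 scale). *Cxcl10*, an interferon-induced attractant of T cells, was listed at 1.61 CPM (0.69 on the log2 scale). Per kilobase, 58.1% of genes were lower than *Cxcl1*, 50.8% were lower than *Cxcl10* and 41.9% were lower than *Ccl9*.

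The 3 members under 1 CPM were all CC chemokines. *Ccl2*, the main attractant of monocytes and known as MCP-1, had a mean of 0.553 CPM (-0.86 on the log2 scale). *Ccl5* (RANTES), typical of activated T cells, had 0.436 CPM (-1.20 on the log2 scale). *Ccl7* (MCP-3), which shares the receptor Ccr2 with *Ccl2*, had 0.301 CPM (-1.73 on the log2 scale). These values were 21.0, 16.6 and 11.4 times the lowest value of the table, and *Ccl7* was the lowest of the 10 per kilobase as well. Among all genes with a symbol, 55.9% reached 1 CPM, beside 7 of these 10.

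Levels of different genes were compared per kilobase of transcript, since a longer transcript gives more reads for the same number of molecules. Lengths came from the GENCODE transcript matched to each RefSeq identifier, so that *Cxcl1* is represented by its RefSeq entry. The order was *Cxcl12* (17.8 CPM per kb), *Cx3cl1* (14.8), *Cxcl14* (9.88), *Cxcl16* (8.94), *Cxcl1* (2.32), *Cxcl10* (1.48), *Ccl5* (0.820), *Ccl2* (0.680), *Ccl9* (0.634) and *Ccl7* (0.376). From the highest to the lowest this is a range of 47.4-fold. The widest step between neighbours was that from *Cxcl16* to *Cxcl1*, 3.85-fold. The steps from *Cxcl14* to *Cxcl16* (1.10-fold) and from *Ccl2* to *Ccl9* (1.07-fold) were the narrowest, and the latter pair changes order when each gene is divided by its longest annotated transcript. Without values of single kidneys, it is unknown which neighbours differ beyond their spread.

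**Figure D2:**
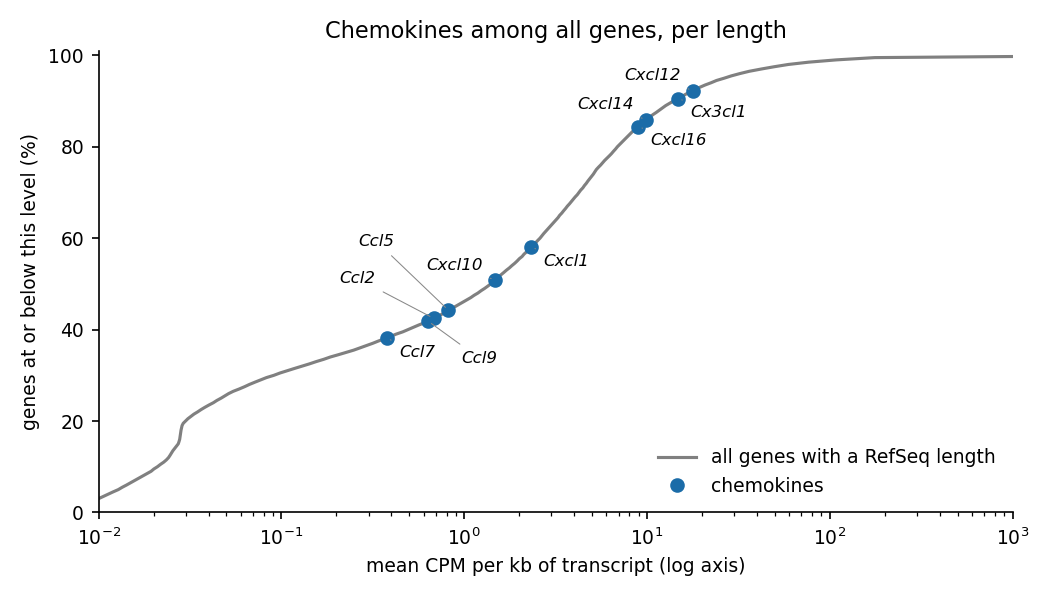
Share of 20180 genes at or below a level (vertical axis, percent) against the mean level in CPM per kb of transcript (log axis), with the 10 chemokines as points. *Cxcl12*, *Cx3cl1*, *Cxcl14* and *Cxcl16* stand apart from the other 6 chemokines, with the gap between *Cxcl16* at 8.94 and *Cxcl1* at 2.32 CPM per kb.

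Correction for length changed the rank of *Ccl9* most. Its transcript of 3006 bases is the longest among the CC chemokines here, and it went from above *Ccl2* and *Ccl5* in CPM to below both in CPM per kb. On the same scale, 6 of the 10 lay above the median gene and 4, all CC chemokines, lay below it. With the longest annotated transcript of every gene the counts were 4 and 6, as *Cxcl1* (1.18 CPM per kb) and *Cxcl10* (0.724) then lay below the median of 1.26. For these genes the longest transcripts (1871 and 2230 bases) cover nearly the whole gene, introns included. The RefSeq entries have 953 and 1094 bases. *Cxcl12*, taken by its gamma entry, was exceeded by 1556 of 20180 genes and *Ccl7* by 12480. By the alpha entry of *Cxcl12*, which is shorter, 679 genes were higher.

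The 4 entries of *Cxcl12* spanned 1.51-fold in CPM. The gamma entry had 100.2 CPM, the beta entry 94.0, the alpha entry 70.8 and an assembled entry 66.4. The RefSeq transcripts differ more in length (5627, 3132 and 1878 bases for the gamma, beta and alpha entries), and the order per kilobase was the opposite: 37.7 CPM per kb for alpha, 30.0 for beta and 17.8 for gamma. In the GENCODE models the beta entry has no base of its own (0 of its 3132 lie outside the other RefSeq entries), whereas alpha has 1530 and gamma 2498. The counts of the beta entry can therefore come only from bases that another entry also covers, and the CPM of the 3 splice forms cannot be summed to a level of the gene. Whether the counting let a read count for more than 1 overlapping entry is not given in the sources used here. The beta entry, with no base of its own, was nevertheless listed at 94.0 CPM, so these entries may hold the same reads. The order per kilobase is thus not an order of splice form levels. The gamma entry exceeded the beta entry by 6.25 CPM, which is 2.50 CPM per kb of the 2498 bases that only gamma covers. With the alpha entry in place of gamma, *Cxcl12* remained the highest of the 10, 2.56 times *Cx3cl1* per kilobase. *Cxcl16* (24.1 and 22.4 CPM) and *Cxcl1* (2.62 and 2.21 CPM) were the other genes with more than 1 entry.

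Positions are given in GRCm38, the assembly that mm10 names. *Ccl2* (82035571 to 82037453) and *Ccl7* (82045712 to 82047525) are neighbours on the forward strand of chromosome 11, and *Ccl5* (83525778 to 83530518) and *Ccl9* (83572919 to 83578636) lie further along it on the reverse strand. *Cxcl16* (70453983 to 70459984, reverse strand) is on chromosome 11 as well, away from the CC genes. *Cxcl1* (90891241 to 90893115, forward strand) and *Cxcl10* (92346638 to 92348889, reverse strand) are on chromosome 5. *Cxcl12* (117168535 to 117181367, forward strand), *Cx3cl1* (94772009 to 94782427, forward strand) and *Cxcl14* (56288643 to 56296551, reverse strand) are on chromosomes 6, 8 and 13, each the only one of these 10 genes there. Chemokine genes outside the 10 were not placed. The 4 genes with the highest levels were thus neither on chromosome 5 nor near the CC genes of chromosome 11. Of the members, 3 overlap a gene on the other strand: *Cxcl16* overlaps *Zmynd15* (1.90 CPM), *Cxcl10* overlaps *Art3* (2.19 CPM) and *Ccl2* overlaps *Gm17268*. The library kit marks strand, but the strand setting of the counting is not given in the sources used here, so it is unknown whether reads of these partners were counted for the 3 chemokines.

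In 7 of 11 chosen pairs of a chemokine and a receptor that binds it, the chemokine was higher per kilobase, and in 4 the receptor was. Divided by each gene's longest annotated transcript, these counts were 6 and 5, since *Ccl5* then lay below *Ccr1*. Such counts depend on the choice of pairs, which does not cover every receptor. Among those left out, *Ccr3* (0.0134 CPM per kb), *Ackr1* (0.0659) and *Ackr2* (0.183) lay below *Ccl7* (0.376), the lowest of the 10 chemokines. Of 21 receptor genes, 6 reached 1 CPM (28.6%), beside 55.9% of all genes. The receptor median was 0.0904 CPM per kb, beside 1.90 for the 10 chemokines chosen by name and 0.226 for the other chemokines. *Ackr3*, an atypical receptor that takes up and clears *Cxcl12*, was the highest at 12.5 CPM per kb. It was followed by *Cx3cr1*, the fractalkine receptor of monocytes and macrophages (1.85 CPM per kb), and *Cxcr4*, the signalling receptor for *Cxcl12* (1.60 CPM per kb). *Ccr2*, the *Ccl2* receptor of inflammatory monocytes, had 1.44 CPM per kb and *Ccr1* 0.779. *Cxcr1* was at the lowest value of the table.

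Per kilobase, the gamma entry of *Cxcl12* was 11.1 times the signalling receptor *Cxcr4* and 1.43 times the clearing receptor *Ackr3*. With the beta entry these ratios were 18.8 and 2.41, and with the alpha entry 23.6 and 3.03. *Cx3cl1* was 7.99 times *Cx3cr1*. *Cxcl16* had the widest gap, 64.7 times its receptor *Cxcr6* (0.262 CPM), which is found on T cells and natural killer cells. *Cxcl10* exceeded *Cxcr3* (0.156 CPM) 16.3-fold and *Cxcl1* exceeded *Cxcr2* (1.04 CPM) 6.77-fold.

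The monocyte attractant *Ccl2* was lower than *Ccr2*, and *Ccl7* was lower than both *Ccr2* and *Ccr1*. *Ccr2* was 2.12 times *Ccl2* and 3.83 times *Ccl7* per kilobase. *Ccr1* was 2.07 times *Ccl7* and 1.23 times *Ccl9*, whereas *Ccl5* exceeded it 1.05-fold, a direction that turned with the longest annotated transcripts (0.653 CPM per kb for *Ccl5* and 0.779 for *Ccr1*). Chemokines outside the 10 were not paired with receptors. Among them *Ccl12*, the mouse relative of *Ccl2*, had 1.41 CPM per kb, beside 1.44 for *Ccr2*. *Ccl6*, the relative of *Ccl9*, had 2.29, beside 0.779 for *Ccr1*. The median of the chemokines outside the 10 was 0.226.

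**Figure D3:**
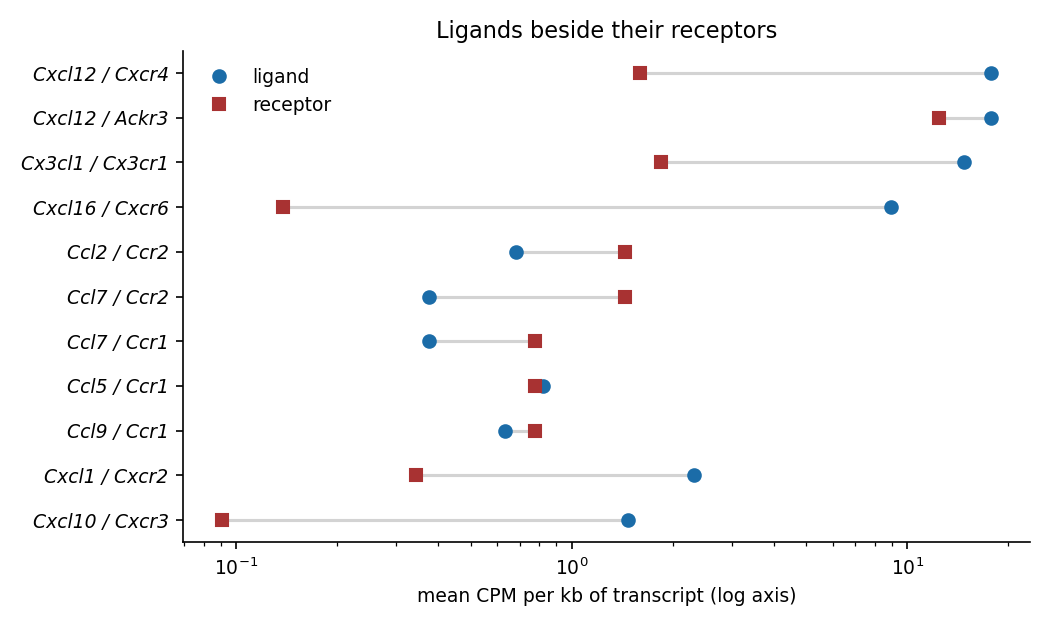
Mean level in CPM per kb of transcript (log axis) of the ligand (circles) and the receptor (squares) in 11 pairs named from general knowledge of the family. The ligand lies to the right in the pairs of *Cxcl12*, *Cx3cl1*, *Cxcl16*, *Cxcl1* and *Cxcl10*, and the receptor lies to the right in both *Ccr2* pairs.

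Enzymes that cut the chemokines were abundant, with a median of 8.27 CPM per kb. Of the 6, 5 reached 1 CPM, beside 55.9% of all genes. *Dpp4*, which trims *Cxcl12* and other chemokines at the amino terminus and is plentiful on the brush border, had 19.5 CPM per kb. The gamma entry of *Cxcl12* was 0.915 times that level, the beta entry 1.54 times and the alpha entry 1.94 times. *Adam10* and *Adam17*, which shed *Cxcl16* and *Cx3cl1* from the cell surface, had 17.8 and 7.19 CPM per kb. *Adam10* thus stood above both of its substrates, and *Adam17* below them. The matrix metalloproteinases *Mmp14* and *Mmp2* had 9.36 and 5.24 CPM per kb, while *Mmp9* was under 1 CPM.

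Chemokines outside the 10 were low. Of 28 further chemokine genes, 26 had an entry. Of these, 6 reached 1 CPM (23.1%), beside 7 of the 10 described here and 55.9% of all genes. Their median was 0.226 CPM per kb, with *Cxcl11* left out for want of a transcript length. The highest were *Ccl6*, the close relative of *Ccl9* (2.29 CPM per kb), the platelet chemokine *Pf4* (1.88), *Ccl27a* (1.72), *Ccl12*, the mouse relative of *Ccl2* (1.41), and *Ccl19* (1.13), which has entries at several loci. *Ccl6* was above *Ccl9* (0.634) and *Ccl12* above *Ccl2* (0.680) on that scale, whereas *Cxcl2*, the relative of *Cxcl1*, had 0.191 CPM per kb and was below it (2.32). *Ccl26* was at the lowest value of the table. Genes of these families are alike in sequence, and reads with an ambiguous placement had been removed, which could lower the levels of close relatives.

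Markers of the cells that carry the receptors were represented unequally. All 5 macrophage markers reached 1 CPM, as did 55.9% of all genes. The 4 with a transcript length had a median of 4.37 CPM per kb, from 1.39 (*Adgre1*, the F4/80 antigen) to 13.4 (*Lyz2*, lysozyme). The macrophage receptors *Cx3cr1* (1.85) and *Ccr2* (1.44) lay at the lower end of this range. The defining T cell genes *Cd3d*, *Cd3e* and *Cd3g* were at 0.157, 0.110 and 0.167 CPM per kb. *Cd4*, which macrophages can express too, was the only T cell marker of 5 to reach 1 CPM (0.551 CPM per kb). *Cd8a* lay just under 1 CPM, with 0.988 CPM (0.316 CPM per kb). *Cxcr3* (0.0904) and *Cxcr6* (0.138), both receptors of T cells, had levels of the same order as the *Cd3* genes. Of 3 neutrophil markers with an entry, only *Csf3r* reached 1 CPM, and the median was 0.639 CPM per kb beside 0.343 for the neutrophil receptor *Cxcr2*. None of the 4 B cell markers reached 1 CPM. The endothelial, stromal and podocyte markers all did, with medians of 13.6, 12.3 and 10.6 CPM per kb. Which cells made each chemokine was not tested.

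**Figure D4:**
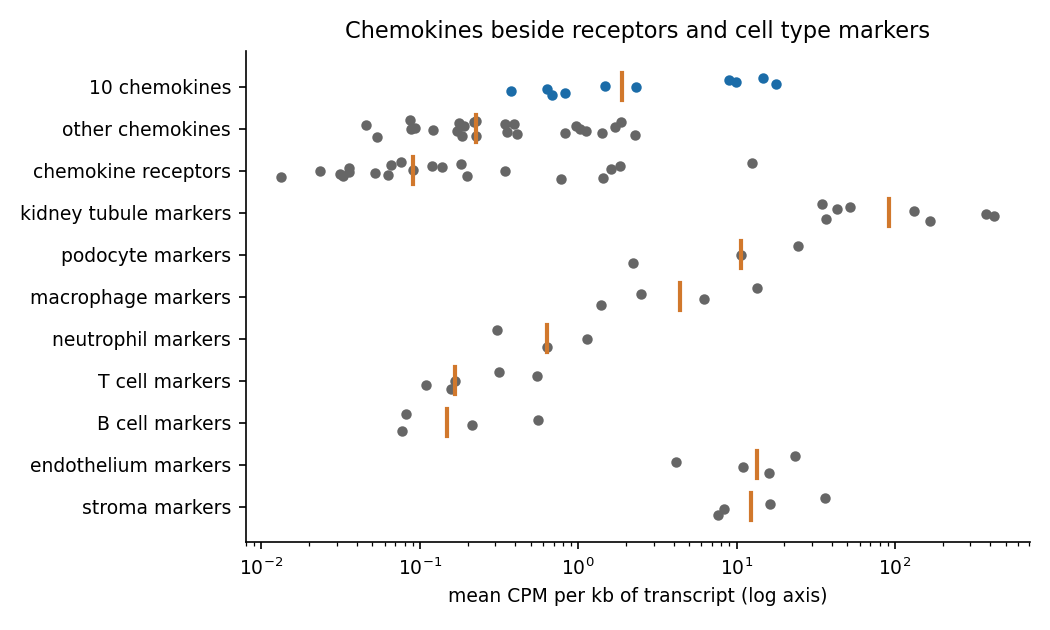
Mean level in CPM per kb of transcript (log axis) of each gene (points) and the list median (bars) for the 10 chemokines, other chemokines, receptors and marker lists of 8 cell types. The median of the 10 chemokines, 1.90, lies below those of the macrophage (4.37), stromal (12.3) and endothelial markers (13.6) and above those of the T cell (0.167) and B cell markers (0.147).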

How the data were processed

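Whole-kidney RNA of 6 mice (3 SKO, 3 DKO) was made into stranded libraries and read from one end over 51 bp. After quality trimming, the authors aligned the reads to mm10 (TopHat 2.0.12, iGenomes annotation) and kept those of mapping quality 10 or more. The submitters' processing notes also name featureCounts, Subread 1.4.6, Cufflinks and edgeR 3.2.4. The deposited log2 value is an average log2 CPM of each transcript over all libraries, as the authors' edgeR run gave it. How that average was formed, and how entries without reads were treated, is not given in the sources used here. The deposited table further holds the authors' own comparison of the groups (a fold change, a likelihood ratio, a p-value and an adjusted p-value), which was not used. Reads per kidney were not analysed here, so the planned test on counts was not run.

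CPM was taken as 2 to the power of the deposited log2 value. A gene was represented by its entry with the highest mean, and genes under 1 CPM were named. Levels per kilobase used the highest RefSeq mRNA entry and its length in GENCODE vM21 (GRCm38), found for 20180 of 20470 genes. 3′-UTRs were read from the same annotation. All 10 members, and the 5 highest genes of each further list, were named, together with receptors and relatives of the members. One gene of the receptor list is not reported here. The members and lists were chosen with earlier results of these data known, and the seed search was added after the table was seen. The search for seed matches and the share of genes below a level were tested on simulated data, and the other steps were not. Python 3.11.15, pandas 2.3.3 and numpy 2.4.6 were used.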

Additional observations from a re-analysis of the deposited data

How the results depend on the processing

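With no spread between kidneys to judge by, a value was taken as moved when it changed by more than 1.5-fold. Summing all entries of a gene in place of the highest moved 3 of 10 chemokines, *Cxcl12* to 331.4 CPM, *Cxcl16* to 46.6 CPM and *Cxcl1* to 4.83 CPM. Whether these sums count a read more than once was not tested, and the sum for *Cxcl12* is not a level of the gene. Using RefSeq mRNA entries only, or subtracting the lowest value of the table, moved none of the 10. Dividing by the longest annotated transcript moved 2 of 10, *Cxcl1* to 1.18 and *Cxcl10* to 0.724 CPM per kb, and put *Ccl2* (0.504) below *Ccl9* (0.634). For *Cxcl1* and *Cxcl10* the longest annotated transcript covers nearly the whole gene, introns included. With that length 6 in place of 7 of 11 pairs had the ligand higher, and 4 in place of 6 chemokines lay above the median gene. With a threshold of 0.5 CPM, 8 of the 10 chemokines passed, beside 59.7% of all genes. With 2 CPM, 5 did, beside 51.3% of all genes. For the other chemokines these counts were 10 and 2, in place of 6. With the seed match shortened to bases 2 to 7, which 57.4% of all genes held, 6 of the 10 chemokines had one. With miR-17 and miR-20a alone, 1 did when every RefSeq entry was searched, and 0 did with 1 entry a gene, as used for the 2086 of 18935 genes that held this match. All 4 seeds gave 2 chemokines either way. The alternatives to the seed match, to the *Cxcl12* entry and to the length in these 2 counts were chosen after seeing the data. Another normalization (DESeq2), fits without a filter and fits without each kidney in turn need counts per kidney and were not run. No paired analysis was possible because the table holds no values of single kidneys. The depth of the libraries is unknown, and it limits the levels under 1 CPM most.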
